A study of Mus musculus with 9 samples.

Results

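Aminoacyl-tRNA synthetases are the enzymes that attach each amino acid to its tRNA, and their mRNAs are described here in mouse liver after an overdose of acetaminophen. The members were taken by gene symbol from the deposited table of mRNA levels. Of 37 symbols sought, 36 genes were found among the 21870 genes of the table, since Mars and Mars1 name the same gene. The cytosolic set holds 20 genes and the mitochondrial set holds the 16 genes whose symbols end in 2. All 36 genes had a value above 0 in every library, and all 36 passed the filter for testing, which 11557 genes of the table passed.

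The animals were wild-type (WT) C57 BL6 mice, 8 weeks old. Control mice received saline. APAP mice received acetaminophen (APAP), an analgesic that injures the liver in overdose, at 500 mg/kg into the peritoneum. The dmPGE2+APAP mice received 300 μg/kg of dmPGE2, a stable prostaglandin E2 analogue, 1 h ahead of the same APAP dose. Livers were taken 6 h after APAP, with 3 libraries in each group. The labels name no dmPGE2 group without APAP, so the effect of dmPGE2 can be read only on top of APAP. Nothing in the labels says outright that the 3 libraries of a group came from separate animals, so the p-values measure the spread between these libraries.

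Each cell holds 2 sets of synthetases, because the cytosol and the mitochondrion each run their own protein synthesis. The mitochondrial enzymes are encoded in the nucleus and imported, and a few genes, Gars and Kars among them, supply both compartments. Part of the cytosolic set is known to be activated by ATF4, a transcription factor made in greater amounts when the integrated stress response slows protein synthesis. ATF4 and its partner CHOP, encoded by Ddit3, switch on genes of amino acid supply and tRNA charging. The element that ATF4 binds together with a C/EBP protein is the C/EBP-ATF response element.

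Deposited levels are FPKM, fragments counted per length of transcript and per size of library, so levels can be compared between genes. They summed to between 371958.2 and 393937.6 per library. The number of reads behind a value is not known. Hepatocyte markers summed to between 37750 and 39580 FPKM in the controls, 42170 to 49330 in APAP and 43560 to 48120 in dmPGE2+APAP, with 9 of 10 listed markers in the table. Of 7 exocrine pancreas genes listed, Prss1, Cpa1, Pnlip and Amy2a5 were at 0 in all libraries. The 7 together summed to between 4.035 and 14.31 FPKM in the controls, 4.105 and 5.408 in APAP, and 4.937 and 6.522 in dmPGE2+APAP. Control library 3 stood apart from the other controls: 1096 tested genes lay more than 0.5 above them on the log2 scale and 1076 lay more than 0.5 below. Among the synthetases that difference was 0.83 for Tars2, 0.52 for Cars2 and −0.50 for Lars, and it stayed within 0.5 for the other members. Tissue RNA cannot tell fewer cells of a type from less RNA per cell.

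In the controls the cytosolic synthetase mRNAs were mostly more abundant than the mitochondrial ones. Mean control FPKM of the cytosolic genes ran from 4.53 for Wars, the tryptophanyl enzyme, to 36.9 for Aars, the alanyl enzyme, with a median of 12.2. Mean control FPKM of the mitochondrial genes ran from 0.714 for Mars2 to 14.7 for Iars2, the mitochondrial isoleucyl enzyme, with a median of 5.77. The summed FPKM of the cytosolic genes was between 314.82 and 340.54 in the controls, between 300.81 and 305.19 in APAP and between 291.09 and 294.68 in dmPGE2+APAP. The summed FPKM of the mitochondrial genes was between 85.66 and 99.46 in the controls, between 74.96 and 79.26 in APAP and between 72.01 and 78.36 in dmPGE2+APAP. Both sums were lower in every treated library than in any control library on the deposited scale. By the median log2 difference from the control mean after rescaling of the libraries, both treated groups overlapped the controls in the cytosolic set. It ran from −0.0545 to 0.0386 in the controls, −0.0116 to 0.0307 in APAP and −0.1245 to −0.0254 in dmPGE2+APAP. For the mitochondrial set it ran from −0.0195 to 0.0301, −0.1234 to −0.0814 and −0.1568 to −0.1212 in the same order.

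**Figure D1:**
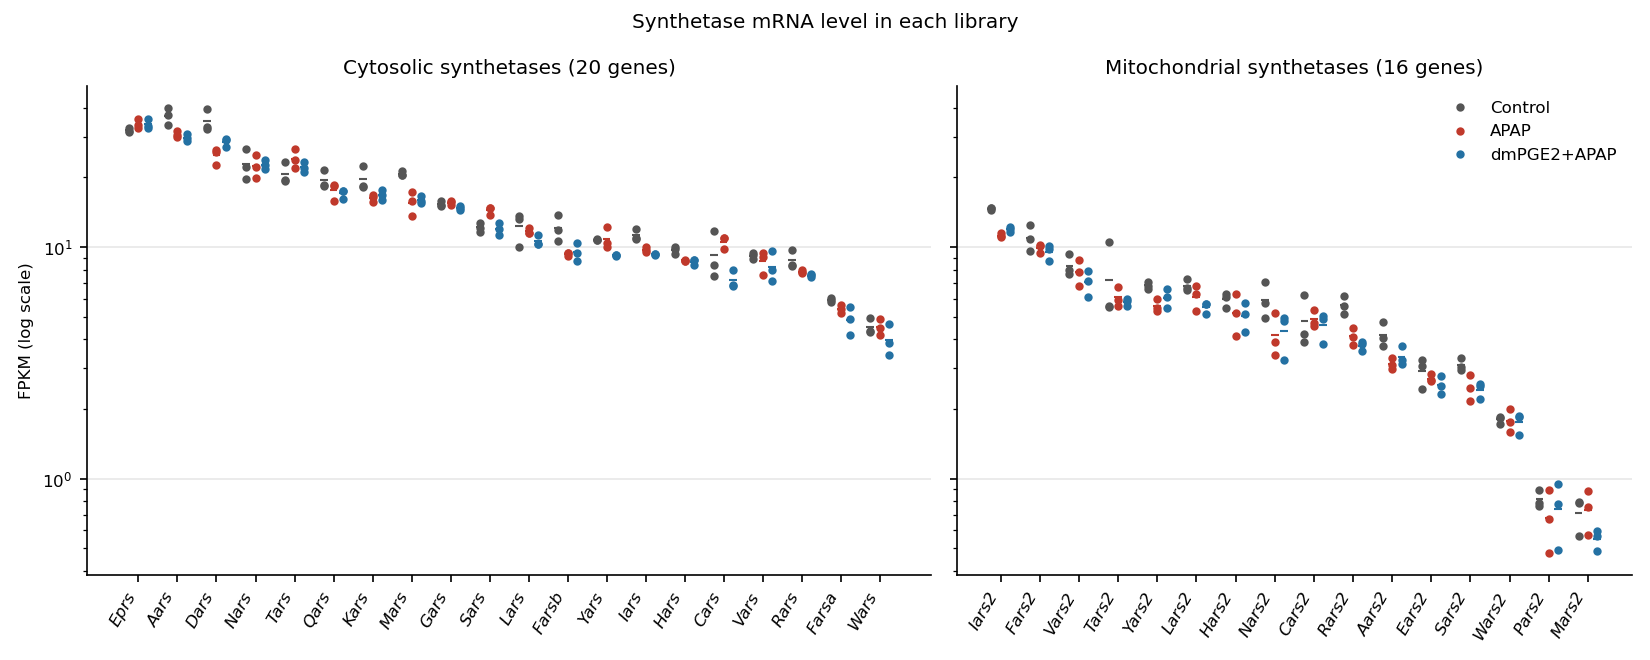
Deposited FPKM on a log axis for each of the 20 cytosolic and 16 mitochondrial synthetase genes, with 1 point per library and a short bar at the group mean (n = 3). Mean control levels span 4.53 to 36.9 FPKM for the cytosolic genes and 0.714 to 14.7 for the mitochondrial genes, and within each gene the groups differ far less than the genes differ from each other.

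The 2 genes for the same amino acid could be set side by side in 17 pairs, where Eprs and Fars2 each enter 2 pairs. In 14 of 17 pairs the cytosolic mRNA was above its mitochondrial partner in all 9 libraries. The widest control ratios were 39.3 ± 2.37 (SD, n = 3) for Eprs over Pars2 and 29.7 ± 5.68 (SD, n = 3) for Mars over Mars2. Eprs makes a fused enzyme for glutamate and proline, and Mars makes the methionyl enzyme. The order was the opposite in all 9 libraries for isoleucine, where the control ratio of Iars to Iars2 was 0.768 ± 0.0368 (SD, n = 3). It was also the opposite for Farsa, one subunit of the cytosolic phenylalanyl enzyme, whose control ratio to Fars2 was 0.545 ± 0.0791 (SD, n = 3). Farsb, the other subunit, was above Fars2 in 2 of 9 libraries.

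Because the ATF4 genes are the reference point for this family, promoter windows were searched for the core of the C/EBP-ATF response element. The windows are 300 bases long, from RefSeq on GRCm38.p6, and reach from 250 bases before to 50 bases after each start site. The motif searched was TGATGNAA on both strands. Of the 20 cytosolic genes 13 had a window, and 5 of these (38.5%) held the motif. Of the 16 mitochondrial genes 14 had a window, and none of these held it (0 of 14). Among all 27025 genes with a window 4.51% held it, and among 25 matched genes of a list of other ATF4 and CHOP genes 8 (32%) did. For each of the 5 cytosolic genes 1 site is printed below as a 30-base window on the strand of the gene, 5′ to 3′, with the motif or its reverse complement in capitals. Windows from Chac1 and Atf3, which are in that list of other ATF4 genes, are shown for comparison. The position is that of the first capital base, counted from 1 at the start site, with bases before it negative.
Aars, chr8:111033840-111033869, plus strand, position 10: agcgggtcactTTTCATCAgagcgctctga
Gars, chr6:55037960-55037989, plus strand, position −30: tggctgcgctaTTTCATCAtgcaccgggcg
Iars, chr13:49682126-49682155, plus strand, position 8: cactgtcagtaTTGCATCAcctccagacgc
Tars, chr15:11399655-11399684, minus strand, position −15: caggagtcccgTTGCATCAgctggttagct
Yars, chr4:129189895-129189924, plus strand, position 4: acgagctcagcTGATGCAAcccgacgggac
Chac1, chr2:119351038-119351067, plus strand, position −193: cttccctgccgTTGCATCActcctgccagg
Atf3, chr1:191183425-191183454, minus strand, position −110: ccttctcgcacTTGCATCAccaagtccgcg

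Not every site is printed. A match describes letters in a window and is no evidence of binding. Cars, Hars, Lars, Nars, Rars, Vars, Wars, Hars2 and Pars2 had no entry in the promoter table.

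The comparison of APAP with control asks whether the overdose changed the synthetase mRNAs by 6 h. Only 3 of the 36 genes passed the test in either direction, with limma adjusted p under 0.05 over all genes tested, against 20.9% of all tested genes. Sars, the cytosolic seryl enzyme, rose, whereas Dars, the cytosolic aspartyl enzyme, and Iars2 fell. Every fitted fold lay between 0.764 for Nars2 and 1.29 for Sars. The 95% intervals left little room for a large rise: the upper limit was below 1.5-fold for 34 of 36 genes and below 2-fold for all 36, with the highest at 1.59-fold for Cars. All gene folds are relative to a rescaling of the libraries that raised APAP-minus-control log2 values by 0.12, so they can lie above the ratio of the deposited means.

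Sars (ENSMUSG00000068739, GRCm38 chromosome 3, from 108424865 to 108445209) was deposited at 12.2, 11.6 and 12.7 FPKM in the controls and at 14.7, 13.8 and 14.8 in APAP. It stood at 12.0, 12.7 and 11.3 FPKM in dmPGE2+APAP. All 3 APAP libraries lay above every library of the other groups. Against control the rescaled fold in APAP was 1.29, a log2 difference of 0.36 with a standard error of 0.075, and the limma adjusted p was 0.00995. It kept an adjusted p under 0.05 when any 1 library was left out. Without rescaling the log2 difference was 0.25 and the adjusted p 0.0527.

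Dars (ENSMUSG00000026356, chromosome 1, from 128363707 to 128417368) was deposited at 33.0, 32.5 and 39.4 FPKM in the controls. In APAP it was at 26.4, 25.8 and 22.7 FPKM, and in dmPGE2+APAP at 27.0, 28.9 and 29.4. The controls lay above all treated libraries, and the APAP libraries lay below all others. Against control, Dars in APAP fell by 0.36 on the log2 scale, a fold of 0.777, with a limma adjusted p of 0.0301. The call was lost without control library 1 (adjusted p = 0.0582), 2 (0.0537) or 3 (0.0633), without APAP library 3 (0.0851) and without dmPGE2+APAP library 2 (0.051), while the fall in log2 stayed between 0.28 and 0.40 in those 5 fits.

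Among the cytosolic genes 1 of 20 was called higher and 1 of 20 lower, against 11.2% and 9.73% of all tested genes. Near the threshold, Tars, the threonyl enzyme, had a log2 difference of 0.34 (adjusted p = 0.0568) and Mars one of −0.30 (adjusted p = 0.0671). Cars, the cysteinyl enzyme, had a log2 difference of 0.34 (adjusted p = 0.137). Without control library 3, in which Cars was deposited at 11.8 FPKM against 8.36 and 7.52 in the other controls, its log2 difference was 0.49 and the adjusted p 0.0226. At an unadjusted limma p under 0.05, Cars, Eprs, Sars and Tars were higher and Dars and Mars lower, 6 of 20 genes against 35.6% of all tested genes. After rescaling, the APAP and control libraries did not overlap for Eprs, Gars, Sars, Tars and Yars, which were higher (5 of 20, against 19.3%), nor for Dars, Farsb, Kars and Mars, which were lower (4 of 20, against 19.8%).

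The cytosolic enzymes with the highest mRNA levels illustrate how small the differences were. Eprs was deposited at 32.9, 31.4 and 31.7 FPKM in the controls, at 35.9, 32.7 and 33.8 in APAP and at 35.8, 32.8 and 33.5 in dmPGE2+APAP. On that scale the groups overlapped, and the rescaled fold of APAP over control was 1.16 (adjusted p = 0.113). Aars was deposited at 39.8, 37.4 and 33.6 FPKM in the controls, at 30.02, 30.5 and 31.7 in APAP and at 29.5, 30.9 and 28.8 in dmPGE2+APAP. The deposited control values were all above the treated ones, but after rescaling the controls and APAP overlapped, with a fold of 0.906 (adjusted p = 0.326).

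Split by what is known of their regulation, the 13 cytosolic genes known as ATF4 targets had 10 fitted differences above 0, 3 below and a median log2 difference of 0.11. They are Aars, Cars, Eprs, Gars, Iars, Lars, Mars, Nars, Sars, Tars, Vars, Wars and Yars, and 1 of 13 was called, Sars. Rescaling had added 0.12 to each APAP-minus-control log2 value, about the size of the median of 0.11, so the signs depend on it. The other 7 cytosolic genes all had fitted differences below 0, with a median of −0.05, and 1 of 7 was called, Dars. Of all tested genes 20.9% were called, 52.6% had a fitted difference below 0 and the median was −0.02, and no test was made between these groups. The enzymes bound in the multi-tRNA synthetase complex, a cytosolic assembly of 8 of these enzymes, had 1 of 8 called, again Dars, and a median of −0.07. Its scaffold genes Aimp1, Aimp2 and Eef1e1 were called in 0 of 3 cases by limma, and in 0 of 3 also at an unadjusted p under 0.05 (against 35.6%).

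Some members share their locus with another gene. Mars overlaps Ddit3 on the opposite strand, and Ddit3 rose 5.71-fold in APAP (limma adjusted p = 4.47e-05), from 1.30, 1.43 and 1.41 FPKM in the controls to 8.58, 7.10 and 7.56. Mars itself went from 21.3, 20.4 and 20.5 FPKM to 13.6, 15.8 and 17.3, with adjusted p above the threshold as given above. Hars and Hars2 overlap each other and Iars2 overlaps Rab3gap2, also on opposite strands. Opposite-strand overlap with a coding gene was also annotated for Cars2 (Naxd), Ears2 (Ubfd1), Fars2 (Lyrm4 and Nrn1), Farsb (Sgpp2), Wars (Wdr25) and Yars (C77080). The library protocol keeps the strand, but whether the quantification used it is not given in the sources used here, so these values are uncertain. Aars overlaps Exosc6 on the same strand, where the strand cannot separate them, and is uncertain too.

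**Figure D2:**
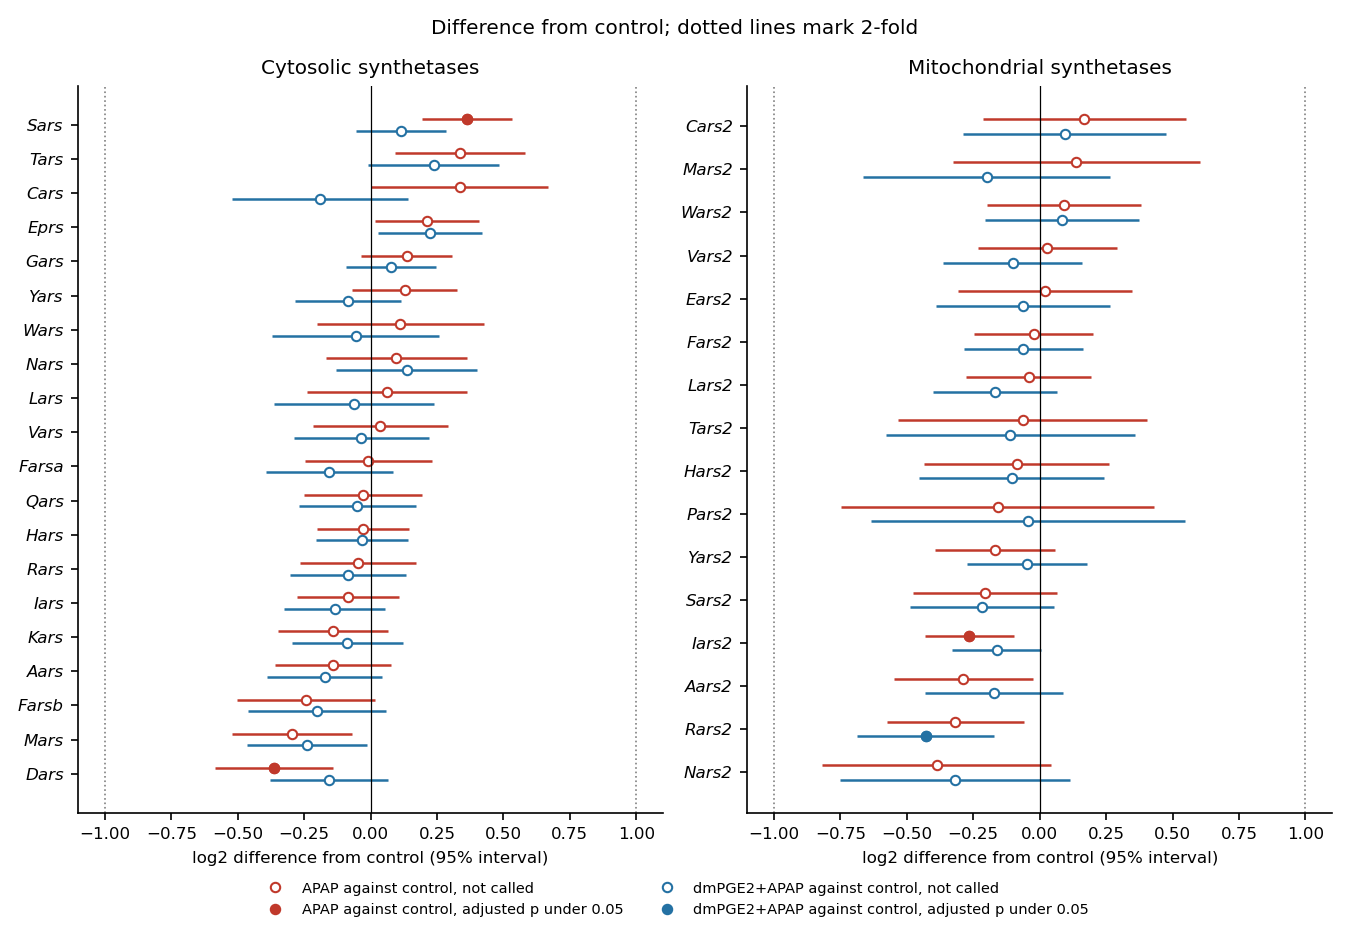
Fitted log2 difference from control with its 95% interval for each synthetase gene, for APAP (red) and dmPGE2+APAP (blue), where filled circles mark limma adjusted p under 0.05 and dotted lines mark 2-fold. Sars, Dars and Iars2 are filled for APAP and Rars2 for dmPGE2+APAP, and all intervals lie inside the 2-fold lines.

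In the mitochondrial set Iars2 fell in APAP and no gene was called higher. Of 16 genes 11 had a fitted log2 difference below 0, against 52.6% of all tested genes, and the median was −0.08. Iars2 was the 1 of 16 called lower (against 9.73%) and 0 of 16 were called higher by limma, also at an unadjusted p under 0.05 (against 17.8%). At that unadjusted level Aars2, Iars2 and Rars2 were lower (3 of 16, against 17.9%), and after rescaling these were also the 3 of 16 genes whose APAP libraries all lay below the controls (against 19.8%).

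Iars2 (ENSMUSG00000026618, chromosome 1, from 185284726 to 185329396) was deposited at 14.8, 14.7 and 14.5 FPKM in the controls, at 11.1, 11.03 and 11.5 in APAP and at 11.6, 12.2 and 12.0 in dmPGE2+APAP. All 6 treated libraries lay below the controls, which had an SD of 0.135 FPKM (n = 3). Against control, Iars2 in APAP fell by 0.27 on the log2 scale, a fold of 0.832, with a limma adjusted p of 0.0342. The call was lost, with adjusted p between 0.058 and 0.0976, when control library 1 or 2, any of the APAP libraries, or dmPGE2+APAP library 2 or 3 was left out.

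Rars2, the mitochondrial arginyl enzyme (ENSMUSG00000028292, chromosome 4, from 34614957 to 34660167), was deposited at 5.56, 6.13 and 5.13 FPKM in the controls, at 3.80, 4.09 and 4.47 in APAP and at 3.82, 3.56 and 3.90 in dmPGE2+APAP. All 6 treated libraries lay below the controls. For APAP the log2 difference from control was −0.32 (limma adjusted p = 0.0811), and without control library 3 it was −0.41 (adjusted p = 0.0355). Pars2, the prolyl enzyme, was at 0.897, 0.765 and 0.784 FPKM in the controls. Its standard error in APAP against control, 0.261 on the log2 scale, was the largest of the mitochondrial set. The 95% interval of its APAP fold ran from 0.595 to 1.35. Mars2, with the lowest control mean, had a standard error of 0.206, close to the 0.207 of Tars2, which had a control mean of 7.23 FPKM.

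**Figure D3:**
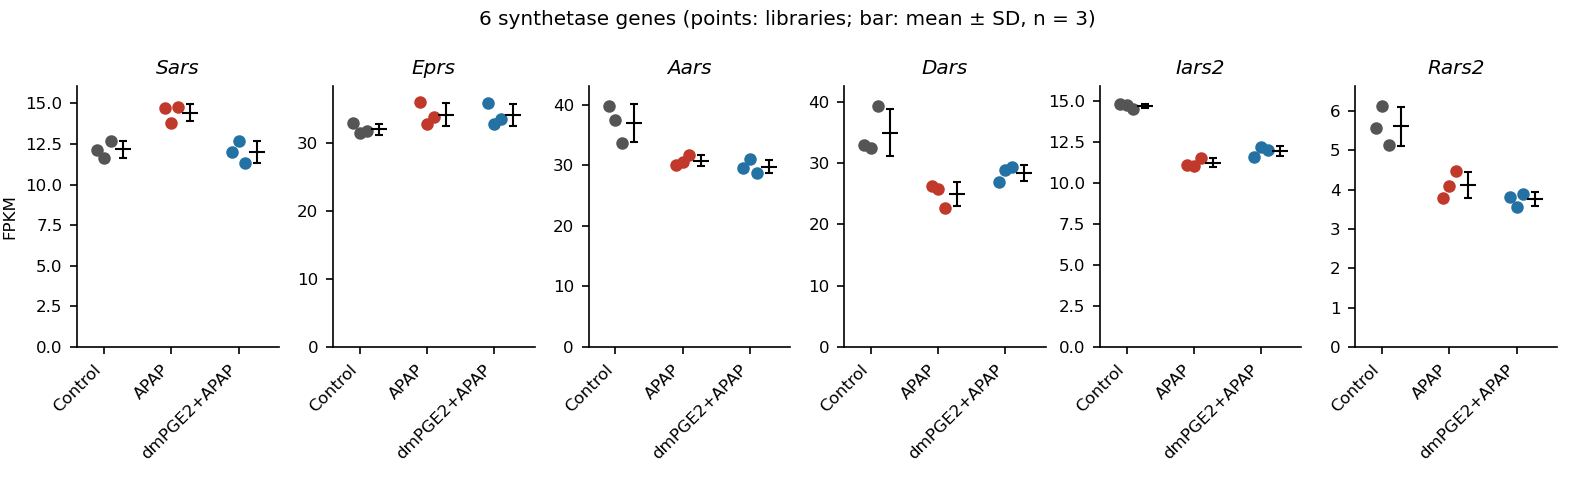
Deposited FPKM in each library for the genes called in any comparison (Sars, Dars, Iars2, Rars2) and for Eprs and Aars, which with Dars have the highest levels; black bars are mean ± SD (n = 3) and each axis starts at 0. The 3 APAP points of Sars sit above the other libraries, while for Dars, Iars2 and Rars2 all treated points sit below the controls.

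The small differences of the synthetases stood beside larger ones in other genes of the same pathway. Of 28 other ATF4 and CHOP genes listed, 17 rose, 0 fell and 6 were too low to be tested in APAP against control (limma; background 11.2% and 9.73%), with none lower at an unadjusted p under 0.05 either. Over all 28 genes, tested or not, the median log2 difference was 0.93. Of the tested genes, Atf3, Psat1 and Slc7a1 had a control mean under 0.5 FPKM. They passed the filter through the treated libraries, so that they had to differ. All 3 are counted in the 17 that rose, and their values are a description. Atf4 itself rose 2.18-fold, from 34.2, 34.2 and 37.3 FPKM in the controls to 74.1, 67.8 and 70.0 in APAP (adjusted p = 4.99e-05). Atf3, a stress-induced transcription factor, rose from 0.284, 0.235 and 0.599 FPKM to 112, 88.6 and 113 (log2 difference 7.96). Psat1, an enzyme of serine synthesis, rose from 0.493, 0.277 and 0.473 FPKM to 4.55, 6.22 and 3.92 (log2 difference 3.38). Slc7a1, a transporter of cationic amino acids, rose from 0.258, 0.254 and 0.295 FPKM to 2.47, 2.08 and 2.02 (log2 difference 2.73). The APAP and control libraries of these 4 genes did not overlap. Asns, asparagine synthetase, which joins an amide to aspartate and charges no tRNA, was at 1.45, 2.95 and 0.573 FPKM in the controls and at 2.74, 2.52 and 2.45 in APAP, and did not pass the test (adjusted p = 0.173).

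**Figure D4:**
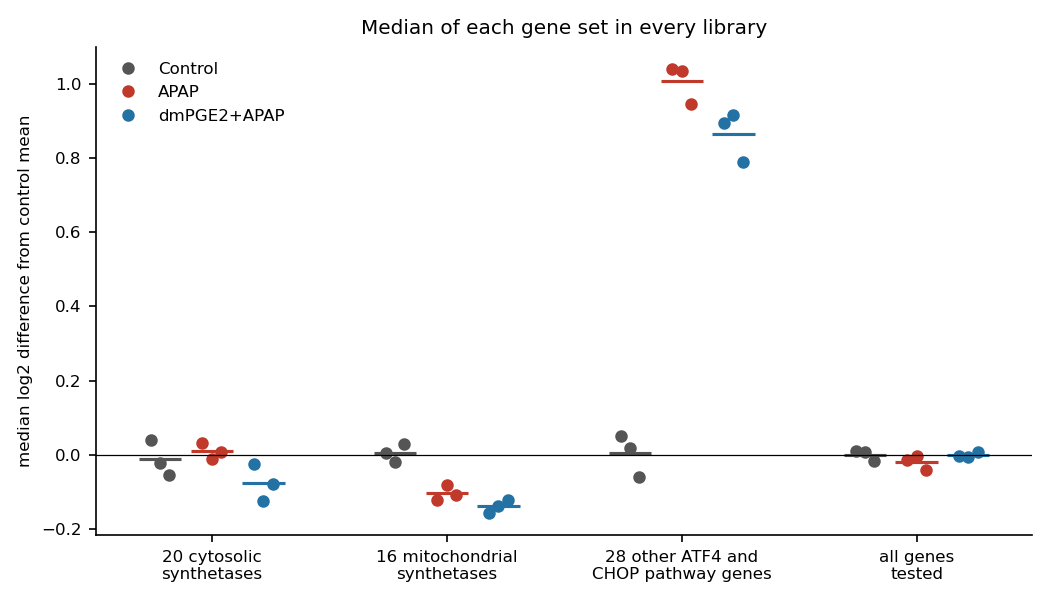
For each library, the median over a gene set of the rescaled log2 difference from the control mean, with bars at the group mean (n = 3). The 28 other ATF4 and CHOP genes, tested or not, lie between 0.95 and 1.04 above control in APAP and between 0.79 and 0.92 in dmPGE2+APAP, while in treated libraries the cytosolic synthetases lie between −0.12 and 0.03 and the mitochondrial synthetases between −0.16 and −0.08.

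Marker sums of some other cells differed between the groups too. Summed platelet markers (6 of 6 in the table) were between 1.629 and 2.047 FPKM in the controls and between 14.37 and 18 in APAP, and summed neutrophil markers (8 of 8) between 2.419 and 6.774 and between 9.827 and 40.99. In dmPGE2+APAP these sums were between 3.506 and 8.089 and between 5.292 and 11.33. Erythroid markers (5 of 5) summed to between 360.9 and 494.9 FPKM in the controls, 519.6 and 1114 in APAP, and 364 and 389.6 in dmPGE2+APAP. Sums for monocytes (6 of 6) were lower, at 29.21 to 36.86, 15.45 to 27.99 and 23.14 to 26.12 in the same order, as were those for lymphocytes (7 of 8), at 1.124 to 1.874, 0.6398 to 0.8539 and 0.5903 to 1.033. Of these markers 2 for monocytes and 0 for lymphocytes passed the filter for testing. Sums for Kupffer cells, stellate cells and cholangiocytes overlapped the controls in both treated groups. Sinusoidal endothelial sums were 72.52 to 77.58 in the controls, 68.92 to 88.04 in APAP and 84.65 to 87.59 in dmPGE2+APAP. The part of all these cells in the synthetase values was not tested.

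The comparison of dmPGE2+APAP with APAP asks whether dmPGE2 given first altered the synthetase mRNAs of the injured liver. No synthetase gene passed the limma test (0 of 36), and no gene of the whole table did (0%). Without dmPGE2+APAP library 1, 50 genes of the table were called (0.434%), none of them a synthetase. At an unadjusted p under 0.05, 0 of 36 were higher, against 4.07% of all tested genes, and 3 of 36 were lower, against 5.25% (9.32% in either direction). The 3 genes were cytosolic: Cars, Sars and Yars, the tyrosyl enzyme. Cars was deposited at 9.79, 10.9 and 10.9 FPKM in APAP and at 7.96, 6.87 and 6.83 in dmPGE2+APAP, a log2 difference of −0.53 (adjusted p = 0.356). For Yars the values were 10.4, 10.04 and 12.2 FPKM in APAP and 9.25, 9.16 and 9.29 in dmPGE2+APAP, a log2 difference of −0.21 (adjusted p = 0.521). For Sars, whose values are given above, the log2 difference was −0.25 (adjusted p = 0.379). In each of these 3 genes the dmPGE2+APAP libraries lay below all APAP libraries. After rescaling, this also held for Iars and Lars, making 5 of 20 cytosolic genes, against 7.89% of all tested genes. Dars was the 1 of 20 higher without overlap, against 8.44%. Of the 16 mitochondrial genes 0 were lower and 1, Iars2, was higher without overlap, against the same shares. The fitted folds of all 36 genes lay between 0.694 for Cars and 1.15 for Dars, and 95% intervals reached 0.552 for Cars at the low end and 1.63 for Pars2 at the high end. Of 36 fitted differences 25 were below 0, against 48.0% of all tested genes. The median log2 difference was −0.04 for the cytosolic and −0.03 for the mitochondrial set, with 0.01 for all tested genes.

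In dmPGE2+APAP against control, which shares its controls with the APAP comparison and is not independent of it, 1 of 36 synthetase genes was called, against 16.3% of all tested genes. This was Rars2, which fell by 0.43 on the log2 scale, a fold of 0.743 (limma adjusted p = 0.0346), where 7.72% of all tested genes were called lower. The call was lost, with adjusted p between 0.0501 and 0.119, without control library 1 or 2, without APAP library 2, and without any of the dmPGE2+APAP libraries. Sars, called higher in APAP, had a log2 difference of 0.12 from control here (95% interval of the fold from 0.963 to 1.22). Dars had a fold of 0.897 and Iars2 one of 0.894, each with a 95% interval that reached 1.00 or more. At an unadjusted p under 0.05, Eprs was higher (1 of 36, against 15.7% of all tested genes) and Mars and Rars2 lower (2 of 36, against 15.7%). After rescaling, the libraries did not overlap with the controls for Eprs, Gars, Sars and Tars, which were higher (4 of 36, against 19.0%), nor for Dars, Iars, Mars, Iars2, Lars2, Rars2 and Sars2, which were lower (7 of 36, against 18.9%). For Eprs the fold was 1.17 (interval from 1.02 to 1.34), beside 1.16 in APAP. The median was −0.07 for the cytosolic and −0.11 for the mitochondrial set, and 29 of 36 fitted differences were below 0, against 50.6% of all tested genes. The other ATF4 and CHOP genes again stood higher, with 16 of 28 called higher (background 8.62%), 6 not tested and a median over all 28 of 0.99. Atf3, Psat1 and Slc7a1 are 3 of these 16, passed the filter through the treated libraries and so had to differ. Compared directly with APAP, the median over the 28 genes was −0.17 in dmPGE2+APAP, so 0.99 does not place them above APAP. Of the 22 tested, 0 were called in that comparison (background 0%). At an unadjusted limma p under 0.05, 2 were higher and 8 lower (background 4.07% and 5.25%).

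The ratio of a cytosolic mRNA to its mitochondrial partner was then compared between groups within each library, where the scaling of libraries has nearly no effect. The Sars to Sars2 ratio was 3.92 ± 0.0895 (SD, n = 3) in the controls, 5.90 ± 0.819 in APAP and 4.97 ± 0.458 in dmPGE2+APAP. The Nars to Nars2 ratio, for asparagine, was 3.87 ± 0.128, 5.53 ± 1.12 and 5.42 ± 1.29. For both pairs every treated library lay above every control library. In APAP against control 15 of 17 pairs had a difference of mean log2 ratios above 0, with a median of 0.17, and the groups did not overlap in 6 of 17, all higher: the pairs of Iars, Nars, Rars, Sars, Tars and Yars. For single genes, on rescaled levels, the share higher without overlap was 19.3%. No share was computed for other pairs of genes, so the counts of pairs have no matching background. An exact two-sided permutation test of 3 against 3 libraries cannot give a p below 0.1, and over the 17 pairs the smallest adjusted p was 0.283. In dmPGE2+APAP against APAP 7 of 17 differences were above 0 (smallest adjusted p = 0.567 by the same exact test), and the groups did not overlap in 2 of 17, the pairs of Cars and Iars, both lower (single genes, 7.89%). In dmPGE2+APAP against control 10 of 17 were above 0 (smallest adjusted p = 0.34), with the pairs of Nars, Rars, Sars and Tars higher without overlap (4 of 17; single genes, 19.0%) and that of Cars lower (1 of 17; 18.9%). No pair passed the threshold, and with that floor none could pass by this test.

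A second readout came from the deposited lncRNA table, most of whose transcripts are not annotated as coding, among them isoforms of coding genes that keep an intron. It held 146 transcripts from 35 of the 36 synthetase genes, 109 of them annotated as retained introns. Of the 115 tested, 5 rose and 0 fell in APAP against control, where 2.73% of all tested transcripts rose and 0.931% fell. At an unadjusted p under 0.05, 20 were higher and 1 lower (background 12.6% and 6.08%). All 5 were retained-intron transcripts of cytosolic genes: 3 from Eprs, 1 from Cars and 1 from Tars. For the cytosolic genes this was 5 of 66 tested retained-intron transcripts (7.58%), against 2.35% of such transcripts of all genes, and for the mitochondrial genes it was 0 of 28, with 1 of 28 higher and 0 lower at an unadjusted limma p under 0.05. The median log2 difference was 0.38 for the 66 cytosolic ones, −0.03 for the 28 mitochondrial ones and 0.11 for those of all genes. Transcripts of 1 gene share reads and are not independent, reads from unspliced RNA cannot be told apart from such isoforms here, and which transcripts are tested depends on a filter on low values.

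Eprs-204 (chromosome 1, from 185363044 to 185410199) was at 1.91, 2.31 and 1.45 FPKM in the controls, at 5.28, 3.90 and 4.70 in APAP and at 4.94, 4.67 and 4.04 in dmPGE2+APAP. All 6 treated libraries lay above the controls, with folds of 2.35 (limma adjusted p = 0.0326) and 2.44 (adjusted p = 0.0417) against control, where the mRNA of Eprs in the gene table had 1.16 and 1.17. Genes and transcripts were rescaled by different factors, so these folds are not on exactly the same scale. Eprs-206 (from 185363058 to 185366969) went from 0.509, 0.392 and 0.376 FPKM to 1.10, 0.946 and 1.25 in APAP and to 1.42, 1.27 and 1.35 in dmPGE2+APAP, with folds of 2.24 (adjusted p = 0.0294) and 2.85 (adjusted p = 0.0184). Its treated libraries too were all above the controls. Eprs-203 (from 185399658 to 185403539) was at 0.328, 0.349 and 0.250 FPKM in the controls, at 1.07, 0.686 and 1.04 in APAP and at 0.714, 0.861 and 0.742 in dmPGE2+APAP. It was called in APAP with a fold of 2.45 (adjusted p = 0.0264), and in dmPGE2+APAP it had a fold of 2.20 (adjusted p = 0.0591).

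Cars-207 (chromosome 7, from 143570048 to 143574609) was at 0.271, 0.207 and 0.221 FPKM in the controls and at 1.03, 0.784 and 0.595 in APAP, a fold of 2.62 (limma adjusted p = 0.0332). In dmPGE2+APAP it was at 0.260, 0.419 and 0.325 FPKM, where 1 library fell within the control range and all 3 lay below the APAP libraries. Its log2 difference of dmPGE2+APAP from APAP was −0.99 (adjusted p = 0.583), which did not pass. Tars-205 (chromosome 15, from 11388923 to 11390407) was at 0.243, 0.476 and 0.349 FPKM in the controls, at 0.948, 0.838 and 1.12 in APAP and at 0.989, 1.14 and 0.724 in dmPGE2+APAP, with a fold of 2.34 in APAP (adjusted p = 0.0453). All treated libraries of Tars-205 lay above the controls.

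In dmPGE2+APAP against control 3 of the 115 transcripts rose and 0 fell (background 1.26% and 0.531%), with 18 higher and 3 lower at an unadjusted limma p under 0.05 (background 10.3% and 5.78%). All 3 were retained-intron transcripts of Eprs (1.16% of those of all genes rose): Eprs-204, Eprs-206 and Eprs-208. In dmPGE2+APAP against APAP 0 of 115 were called (background 0%), with 4 higher and 11 lower at an unadjusted p under 0.05 (background 2.70% and 3.92%). These transcript calls were not stable: without any 1 of the control libraries, or without APAP library 1, 0 transcripts were called for APAP in place of 5. Without APAP library 2 there were 2 and without APAP library 3 there was 1. Without dmPGE2+APAP library 2 or 3 there were 3. For dmPGE2+APAP against control the number was 0 without control library 2 or 3 or any dmPGE2+APAP library, and 1 without control library 1 or APAP library 1 or 2.

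**Figure D5:**
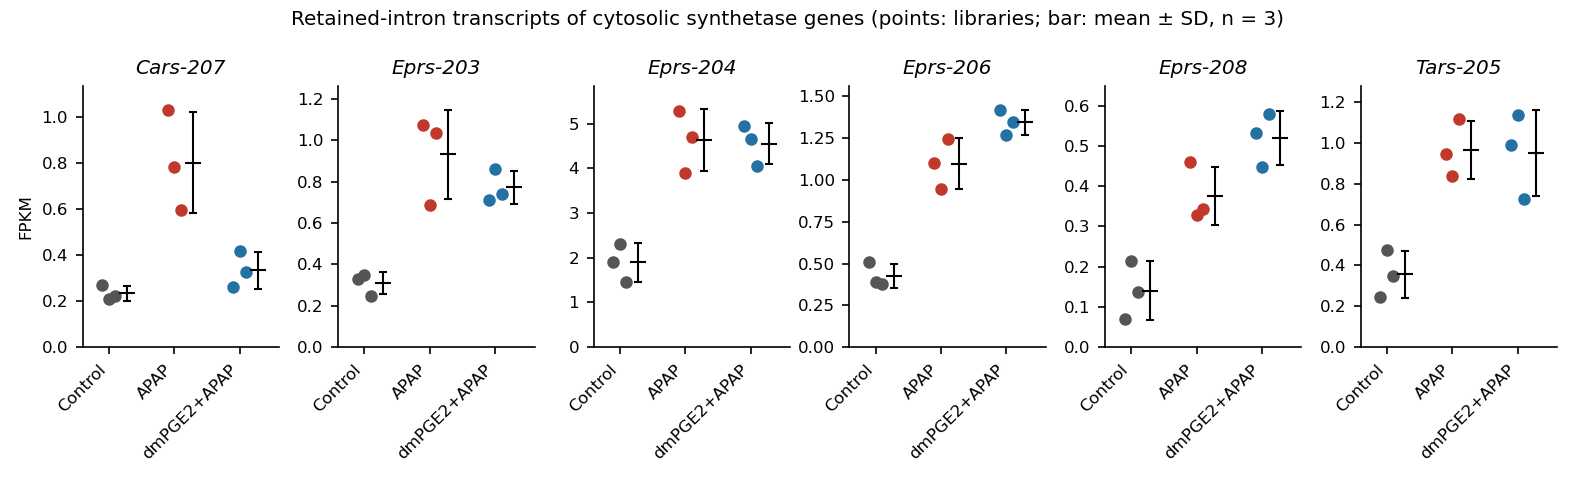
Deposited FPKM in each library of the 6 retained-intron transcripts of synthetase genes called in either comparison with control; black bars are mean ± SD (n = 3), axes start at 0 and differ between panels. In the panels of Eprs-203, Eprs-204, Eprs-206, Eprs-208 and Tars-205 all treated points sit above the controls, while dmPGE2+APAP points of Cars-207 sit at 0.260 to 0.419, below the APAP points.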

How the data were processed

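Libraries were made from rRNA-depleted liver RNA with a strand-marking protocol, per the labels' protocols. Per the submitters' processing notes, HISAT2 was used with GRCm38 (mm10), and the quantifier is not given in the sources used here. FPKM per gene and per lncRNA transcript were used as deposited. The values deposited under the name of read counts are a score: in the lncRNA table it equalled deposited FPKM multiplied by locus span and a library constant, within 0.36%. In the mRNA table that relation did not hold (deviations up to 99.31%), its scores summed to between 296.8 and 399.3 M per library, and how they were made is not given in the sources used here. Neither was taken as counts, so no count test was run and depth is unknown. The labels do not explain the name of the control columns, which were taken as controls by elimination. Their library numbers are those of the columns.

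FPKM was divided by a library scale factor (a mean of log ratios after trimming 30% by ratio and 5% by abundance), 0.1 was added and the log2 taken. Folds are on this scale and understate changes of low genes. Transcripts took a separate factor, computed over genes and transcripts together. It shifted APAP-minus-control log2 values by −0.0271, where the factor for genes shifted them by 0.12. A gene needed 0.5 FPKM, and a transcript 0.1 FPKM, in 3 or more libraries to be tested. The test was limma 3.58.1 in R 4.3.3, two-sided, with a trend on abundance and 6 residual degrees of freedom. Benjamini-Hochberg adjusted p under 0.05 was the threshold, over all 11557 genes or 22984 transcripts. The script was tested on simulated data. Values in every library are given for members called in any comparison and for the 3 with the highest mean. Values of Cars, Mars, Yars and Pars2, and the pairs named, were chosen after theirs were seen. The members and lists were chosen with earlier results of these data known. Gene coordinates were the same in GENCODE for all 36 genes. Alternatives covered the pseudocount, the filter, the scaling, the trend, the groups in the fit, the replicate number as a block, and each library left out. Some items are not reported here.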

Additional observations from a re-analysis of the deposited data

How the results depend on the processing

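Without rescaling, the mRNA calls shifted downward. In APAP against control the share of called genes that were higher went from 53.5% to 31.6%, the median log2 difference from 0.01 to −0.10 for the cytosolic and from −0.08 to −0.19 for the mitochondrial set, and the genes called were Dars, Farsb, Mars, Aars2, Iars2 and Rars2 (3 mitochondrial). In dmPGE2+APAP against control that share went from 52.8% to 28.5%, with 3 cytosolic (Aars, Iars, Mars) and 2 mitochondrial genes called (Iars2, Rars2). Sars then had −0.0193 in dmPGE2+APAP against control in place of 0.12. With only the groups compared in the fit, calls were 1 cytosolic and 0 mitochondrial for APAP and 0 mitochondrial for dmPGE2+APAP against control. Without an abundance trend 0 mitochondrial genes were called for APAP, and without a filter on low values 0 for dmPGE2+APAP against control. The cause was not tested. Retained-intron and other transcripts called numbered 3 (APAP) and 1 (dmPGE2+APAP against control) with a pseudocount of 1, 3 (APAP) without a filter and 1 (dmPGE2+APAP against control) without rescaling. Leaving out 1 library at a time gave 1 to 3 cytosolic and 0 to 2 mitochondrial genes for APAP, 0 to 1 and 0 to 1 for dmPGE2+APAP against control, and 0 to 4 and 0 to 2 transcripts. Eprs in dmPGE2+APAP against APAP (0.01) changed sign to −0.0039 without rescaling, to −0.0028 and −0.0128 without APAP library 2 or 3, and to −0.0407 without dmPGE2+APAP library 1, and leaving out 1 library gave −0.0407 to 0.0587. The replicate block was possible for dmPGE2+APAP against APAP only, since control columns are tied to no numbered sample. It gave 0 calls in both sets and for transcripts. Correlations of same-numbered libraries were 0.023, 0.023 and −0.117, so the numbers were not taken to pair the samples. Depth is unknown, and 3 libraries per group limit the precision.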

Other observations

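Genes that work next to the mitochondrial synthetases were also measured in APAP against control. Of 6 genes that aid mitochondrial aminoacylation, 3 fell and 0 rose by limma (background 9.73% and 11.2%), with 0 higher at an unadjusted p under 0.05. They were Gatc and Gatb, subunits of the amidotransferase that makes glutaminyl-tRNA in mitochondria, and Mtfmt, which formylates the initiator methionyl-tRNA. Gatc went from 6.999, 7.48 and 7.59 FPKM in the controls to 4.70, 4.36 and 4.45 in APAP (fold 0.67, adjusted p = 0.00174) and was at 5.56, 5.66 and 5.59 in dmPGE2+APAP. The 3 groups of Gatc did not overlap. Of 9 mitochondrial translation factors, 4 fell and 0 rose, with 0 higher at an unadjusted p under 0.05: Mtif2 and Mtif3 (initiation), Tsfm (elongation) and Mtrf1 (release). Mtif3 went from 5.08, 9.74 and 5.52 FPKM to 3.39, 2.72 and 2.49 in APAP (fold 0.484, adjusted p = 0.015), and Mtrf1 from 3.23, 3.18 and 3.04 FPKM to 1.97, 1.63 and 1.52 (fold 0.599, adjusted p = 0.00514). Of 5 cytosolic elongation factors, 0 were called by limma and 0 passed an unadjusted p under 0.05 (background 20.9% and 35.6%). In dmPGE2+APAP against control, 1 of the 6 aminoacylation genes was called higher and 0 lower by limma (background 8.62% and 7.72%). Of the 9 translation factors 0 were higher and 2 lower there. In dmPGE2+APAP against APAP 0 genes of either list were called. At an unadjusted p under 0.05, 2 of those 6 were higher and 0 lower (background 4.07% and 5.25%).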
